A study of Rattus norvegicus with 9 samples.

Results

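Gata4, Nkx2-5, Tbx5, Tbx20, Hand2, Meis1, Mef2a, Mef2c, Mef2d and Srf encode transcription factors that specify and maintain the heart muscle lineage. These 10 genes were taken by symbol from the 28935 genes of the count table, and all 10 passed the low-count filter that left 14151 genes for testing. They were measured by stranded mRNA sequencing in ventricular myocytes freshly isolated from Sprague-Dawley rats 1 or 2 days old, a primary culture of heart muscle cells. The cells were held for 48 h in medium with 3% fetal bovine serum, and 8 µL of adenovirus per well of a 12-well plate was then given for 48 h in serum-free medium. The control virus carried GFP, and the other 2 viruses carried Nfya, the DNA-binding subunit of the CCAAT-binding complex NF-Y, or Nfe2l1, a stress-activated factor of the cap'n'collar family. Each virus has 3 libraries, 9 in all, and all groups share adenoviral infection, the serum change and the strain. The labels used here name neither the promoter nor the species of the viral insert, and they do not say whether replicates came from separate cultures. A p-value here thus reflects spread among libraries that may be no more than technical.

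In the developing heart, GATA4, NKX2-5 and TBX5 bind each other and neighbouring DNA sites, and they switch on genes of the contractile apparatus and of the natriuretic peptides. TBX20 and HAND2 shape the chambers and the outflow tract, and MEIS1 has been linked to the exit of newborn heart muscle cells from the cell cycle. The MEF2 proteins and SRF belong to the MADS-box family. MEF2 proteins are restrained by class IIa histone deacetylases, and SRF binds the CArG box with either myocardin-type coactivators or Ets-type partners of the Elk group. NF-Y binds the sequence CCAAT in many promoters, and NFE2L1 binds antioxidant response elements together with small Maf proteins.

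Library totals ran from 5712123 counts in GFP replicate 3 to 7310774 counts in Nfe2l1 replicate 3. The endogenous Nfya gene was at 77.8 to 81.9 CPM (a library's counts scaled to a common total, with TMM factors) in the GFP libraries, 88.3 to 89.6 in the Nfya-labelled and 90.5 to 94.8 in the Nfe2l1-labelled libraries, while Nfe2l1 was at 234 to 246, 218 to 227 and 233 to 245 CPM in the same order. Against GFP, edgeR's quasi-likelihood test gave Nfya a log2 change of 0.15 in the Nfya-labelled (adjusted p = 0.00926) and 0.20 in the Nfe2l1-labelled libraries (2.06e-04). Nfe2l1 was at -0.11 in the Nfya-labelled (0.00784) and -0.01 in the Nfe2l1-labelled libraries (0.856). Neither gene had its highest mean in the group named for it. Groups are therefore named below by their labels, and "with Nfya" or "with Nfe2l1" means only the libraries so labelled. The 3 Nfya-labelled libraries differed from each other by no more than counting noise (chi-square per degree of freedom 0.969 to 1.00 over pairs, against 1.06 to 1.67 for GFP and 1.12 to 1.53 for Nfe2l1-labelled pairs). Values with these 3 libraries averaged and counted as 1 sample are therefore given wherever that ends the call of a member. The cardiomyocyte markers Tnnt2, Myh6 and Actn2 stood at 273 ± 13.0, 357 ± 24.7 and 423 ± 24.8 CPM (SD, n = 3) in the GFP libraries, and 10 of 11 cardiomyocyte markers were found. All 6 skeletal myogenic factors (Myod1, Myog and relatives) were too low to test, with 17, 24 and 67 counts in all over the GFP, Nfya-labelled and Nfe2l1-labelled libraries.

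No member of the set changed by as much as 2-fold, and the largest change was a 1.24-fold fall of Tbx5 in the Nfe2l1-labelled libraries. Against GFP, Mef2a, Srf and Nkx2-5 rose and Tbx5, Meis1, Hand2 and Mef2d fell in the Nfya-labelled libraries. In the Nfe2l1-labelled libraries Tbx5, Mef2c, Meis1, Tbx20 and Gata4 fell. Calls rest on edgeR's quasi-likelihood test with p-values adjusted by Benjamini and Hochberg's method over the 14151 genes, at a threshold of 0.05. The median absolute log2 change of the called members was 0.16 for Nfya and 0.14 for Nfe2l1 against GFP, where that of all called genes was 0.37 and 0.41.

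The promoters of 8 of the 10 genes are in the RefSeq promoter table (build GRCr8), which gives 250 bases before and 50 after each gene's start. The genes Gata4 and Mef2c have no entry there. The 4 members with a CCAAT (either strand) and the 1 member with the antioxidant response element core TGACNNNGC (either strand) are shown here because these letters are the binding sequences of NF-Y and of NFE2L1 with its small Maf partners. Each run gives the 250 bases before the start, 5′ to 3′ on the gene's strand, with CCAAT or its reverse complement, the response element core and the CArG box in capitals. The capitals of Srf include 2 CArG boxes, the element that SRF itself binds.
Srf (GRCr8 chr9:21923826-21924075, plus strand): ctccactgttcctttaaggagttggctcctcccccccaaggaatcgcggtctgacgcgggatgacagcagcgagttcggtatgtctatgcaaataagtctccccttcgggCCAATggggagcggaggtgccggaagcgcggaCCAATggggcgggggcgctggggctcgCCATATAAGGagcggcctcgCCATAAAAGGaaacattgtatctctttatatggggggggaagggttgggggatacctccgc
Nkx2-5 (GRCr8 chr10:16848350-16848599, plus strand): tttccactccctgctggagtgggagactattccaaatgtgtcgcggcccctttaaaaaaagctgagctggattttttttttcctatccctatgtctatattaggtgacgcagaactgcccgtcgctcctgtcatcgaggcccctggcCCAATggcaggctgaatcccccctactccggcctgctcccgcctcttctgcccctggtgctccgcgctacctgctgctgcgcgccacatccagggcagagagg
Hand2 (GRCr8 chr16:37931489-37931738, minus strand): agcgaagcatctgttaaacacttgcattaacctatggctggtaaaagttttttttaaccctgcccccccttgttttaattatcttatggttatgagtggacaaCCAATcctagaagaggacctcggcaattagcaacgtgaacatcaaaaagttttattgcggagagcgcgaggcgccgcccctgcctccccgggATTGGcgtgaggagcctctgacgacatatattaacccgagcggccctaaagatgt
Mef2d (GRCr8 chr2:175904082-175904331, plus strand): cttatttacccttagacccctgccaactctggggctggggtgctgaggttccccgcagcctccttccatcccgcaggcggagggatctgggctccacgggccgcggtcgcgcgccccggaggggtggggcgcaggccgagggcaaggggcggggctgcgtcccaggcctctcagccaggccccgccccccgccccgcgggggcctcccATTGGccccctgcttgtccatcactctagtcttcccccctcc
Tbx5 (GRCr8 chr12:42395360-42395609, minus strand): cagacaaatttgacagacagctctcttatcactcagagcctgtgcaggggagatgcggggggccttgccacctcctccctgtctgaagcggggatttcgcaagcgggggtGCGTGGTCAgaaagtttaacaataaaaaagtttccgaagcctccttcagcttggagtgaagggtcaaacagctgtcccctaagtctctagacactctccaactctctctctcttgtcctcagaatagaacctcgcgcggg

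The Srf promoter holds 2 copies of CCAAT, at 140 to 136 and 108 to 104 bases before the start, and the CArG boxes lie between these and the start, at 81 to 72 and 61 to 52 bases before it. Nkx2-5 holds 1 copy at 103 to 99 bases. Hand2 has 2, at 147 to 143 bases on the gene's strand and at 55 to 51 on the other strand, and Mef2d has 1 on the other strand at 42 to 38 bases. Of these 4 genes, Srf and Nkx2-5 rose and Hand2 and Mef2d fell in the Nfya-labelled libraries. The share of 4 in 8 stands beside 37.5% of all 33469 promoters of the same 300 bases that hold CCAAT. The response element core of Tbx5 lies on the other strand at 140 to 132 bases, and 12.1% of all promoters hold one. A CArG box is in 1.64% of all promoters, and Srf is the 1 member of the 8 that has it. AGATAA or TGATAA, the site of GATA factors, is in Tbx5 and Hand2 (2 of 8, both on the other strand, at 225 to 220 and 172 to 167 bases) and in 18.9% of all promoters. None of the motif searches overlapped another in these members, and a match describes letters in this window only.

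Compared per length, levels in the control cells ran from that of Tbx5 to that of Gata4. In the deposited RPKM values (read number per length of gene, corrected for library size), Gata4 was highest in the GFP libraries at 70.0 ± 2.57 (SD, n = 3), followed by Mef2a at 61.7 ± 3.17, Nkx2-5 at 55.8 ± 1.88, Tbx20 at 54.1 ± 1.17 and Mef2d at 50.4 ± 0.395. Srf stood at 44.4 ± 1.09 RPKM, Mef2c at 40.8 ± 0.167, Hand2 at 37.6 ± 1.03, Meis1 at 24.0 ± 0.284 and Tbx5 at 22.5 ± 0.874. Of neighbours in that order, the library ranges of Nkx2-5 and Tbx20 overlapped and all others were apart. Gata4 had 970 of the 14986 genes with RPKM values above it, and Tbx5 had 6438.

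**Figure D1:**
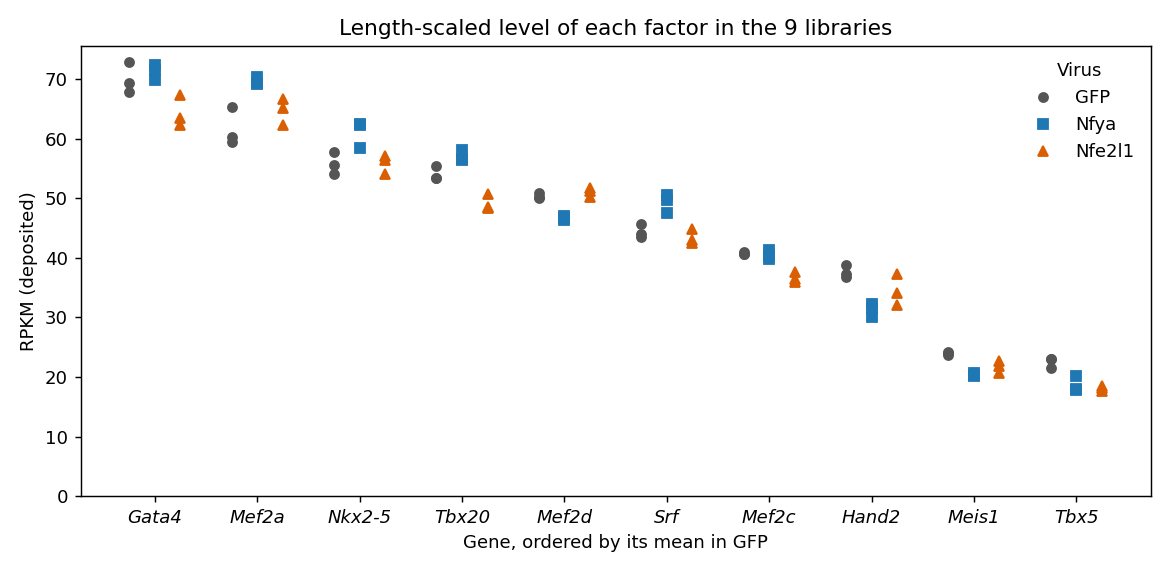
RPKM of the 10 factors in each library (points; vertical axis in RPKM) by virus, ordered by the mean of the GFP libraries. Gata4 and Mef2a lead in each group, and Meis1 and Tbx5 are lowest in each.

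The order of levels moved little between viruses. In the Nfya-labelled libraries Srf (49.3 ± 1.55 RPKM) stood above Mef2d (46.7 ± 0.327), and Mef2a (69.6 ± 0.636) reached the range of Gata4 (71.3 ± 1.32). In the Nfe2l1-labelled libraries the overlapping neighbours were Mef2a (64.7 ± 2.21) with Gata4 (64.4 ± 2.63), Mef2d (51.1 ± 0.816) with Tbx20 (49.2 ± 1.30), and Mef2c (36.7 ± 0.868) with Hand2 (34.5 ± 2.68). Tbx5 was last in each group, at 18.6 ± 1.29 RPKM in the Nfya-labelled and 18.1 ± 0.401 in the Nfe2l1-labelled libraries.

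Counting error limits the precision of single libraries. The counts of a member in 1 library ran from 129 (Hand2, Nfya-labelled replicate 3) to 1780 (Mef2c, GFP replicate 2), and the counting error expected from them was 2.42% to 8.69% of the level. In 22 of the 30 combinations of gene and group the libraries varied by less than their expected error. An SD from 3 libraries is imprecise and often falls below its expected value, and the count of 22 was not tested. The lowest of the 30 was Mef2d among the GFP libraries, at 0.631%, where 3.83% is expected from counting alone. The members lay at 0.114 counts per base of gene length (Tbx5) to 0.476 (Gata4), where 708 genes exceeded 0.5 and the highest reached 1.45. A ceiling on counts per base would compress levels and changes of dense genes. Whether there is one was not tested, though 1 alternative assumes it.

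**Figure D2:**
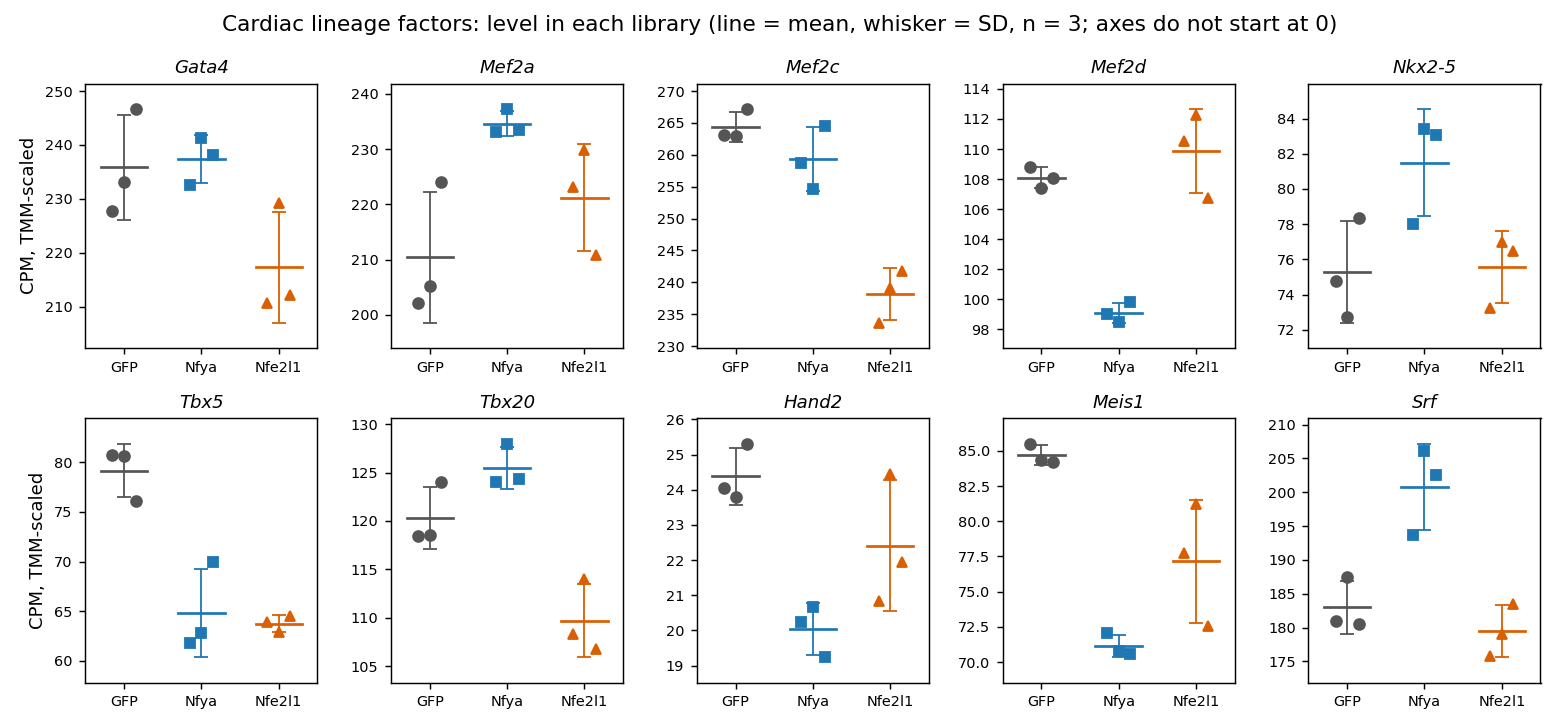
TMM-scaled CPM of each factor in every library (points) with the mean (line) and SD (whisker, n = 3) per virus; each panel has its own axis, which does not start at 0. Tbx5 lies lower in all libraries of both factor viruses than in the GFP libraries, and Mef2d and Meis1 lie lowest in the Nfya-labelled libraries.

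The T-box gene Tbx5, whose product acts with GATA4 and NKX2-5 and whose loss in people causes heart and hand defects, fell with both viruses. It stood at 80.7, 80.7 and 76.1 CPM in GFP replicates 1 to 3, at 61.8, 62.8 and 69.9 in the Nfya-labelled and at 63.9, 62.9 and 64.5 in the Nfe2l1-labelled libraries. Every library of either factor virus lay below every GFP library, and the ranges of the 2 factor viruses overlapped. Tbx5 fell by 0.29 ± 0.05 (SE) on the log2 scale in the Nfya-labelled libraries (adjusted p = 1.06e-04) and by 0.31 ± 0.05 in the Nfe2l1-labelled libraries (adjusted p = 3.9e-05). These comparisons share the GFP libraries. Between the 2 factor viruses Tbx5 differed by 0.02, with a 95% interval from -0.08 to 0.13 (adjusted p = 0.752). In bulk RNA, fewer cells of a type and less RNA per cell cannot be told apart, and this holds for each change given here.

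Tbx20, a T-box factor that the adult heart also needs, showed a different order. Its values were 118.4, 118.5 and 124.0 CPM in the GFP libraries, 124.0, 128.0 and 124.4 in the Nfya-labelled and 108.4, 114.0 and 106.8 in the Nfe2l1-labelled libraries. The Nfe2l1-labelled libraries lay below all others, while the GFP and Nfya-labelled ranges met. Tbx20 fell by 0.13 ± 0.04 in the Nfe2l1-labelled libraries (adjusted p = 0.00462), a call that was lost in DESeq2 (adjusted p = 0.0681), with no low-count filter (0.0590), without Nfe2l1 replicate 3 (0.0744) and in the 7 libraries of like depth, without the shallowest and the deepest (log2 change -0.09, 0.135). The change with Nfya was 0.06 ± 0.03 (adjusted p = 0.206), and 5 of 22 alternatives called it, among them the fits without Nfe2l1 replicate 1 (adjusted p = 0.0409) or replicate 3 (0.0388). In these fits without an Nfe2l1 library the median of all genes with Nfya also moved, from -0.02 to 0.01. In the direct comparison Tbx20 was 0.20 ± 0.03 higher in the Nfya-labelled than in the Nfe2l1-labelled libraries (adjusted p = 1.98e-04), and all 22 alternatives called it.

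Gata4, the zinc-finger factor at the centre of the cardiac programme, stood at 228, 233 and 247 CPM in the GFP libraries, at 233, 241 and 238 in the Nfya-labelled and at 211, 229 and 212 in the Nfe2l1-labelled libraries. The highest value was that of GFP replicate 3, the shallowest library, and the GFP range overlapped both others. With Nfya the log2 change was 0.01 ± 0.04 (95% interval -0.07 to 0.09, adjusted p = 0.827). Gata4 fell by 0.12 ± 0.04 in the Nfe2l1-labelled libraries (adjusted p = 0.0146). Leaving out GFP replicate 3 ended that call (adjusted p = 0.0567), as did leaving out Nfe2l1 replicate 1 (0.161) or replicate 3 (0.125) and using no low-count filter (0.0539). Over the 7 libraries of like depth the log2 change was -0.07 (adjusted p = 0.139).

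Nkx2-5, the homeobox factor expressed from the first heart progenitors on, was at 74.8, 72.7 and 78.4 CPM in the GFP libraries, 78.01, 83.4 and 83.1 in the Nfya-labelled and 73.2, 76.97 and 76.5 in the Nfe2l1-labelled libraries. One Nfya-labelled library lay within the GFP range. Nkx2-5 rose by 0.12 ± 0.04 with Nfya, just inside the threshold (adjusted p = 0.0464). The call was lost in DESeq2 (adjusted p = 0.149), without GFP replicate 2 (0.0759), without Nfya replicate 2 (0.146) or replicate 3 (0.135), with the replicate number as a block (0.0514), and with the Nfya-labelled libraries counted as 1 sample (0.227). With Nfe2l1 the change was 0.01 ± 0.04 (adjusted p = 0.891).

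Hand2, a basic helix-loop-helix factor of the right ventricle and outflow tract, was the least counted member. Its values were 24.1, 23.8 and 25.3 CPM in the GFP libraries, 20.2, 20.7 and 19.2 in the Nfya-labelled and 20.8, 24.5 and 22.0 in the Nfe2l1-labelled libraries. All Nfya-labelled libraries lay below the other 6, and the Nfe2l1-labelled range reached into the GFP range. Hand2 fell by 0.28 ± 0.08 with Nfya (adjusted p = 0.0108), a call lost in DESeq2 (0.0993) and with the Nfya-labelled libraries counted as 1 sample (0.102). With Nfe2l1 the log2 change was -0.12 ± 0.08 (adjusted p = 0.279).

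Meis1, a TALE-class homeobox factor, was lower with Nfya in every library. It stood at 85.5, 84.4 and 84.2 CPM in the GFP libraries, at 72.0, 70.8 and 70.5 in the Nfya-labelled and at 77.7, 81.2 and 72.5 in the Nfe2l1-labelled libraries. The 3 groups did not overlap, and Nfe2l1 replicate 3, the deepest library, stood closest to the Nfya-labelled values. Meis1 fell by 0.25 ± 0.04 with Nfya (adjusted p = 1.38e-04), under all 22 alternatives. It fell by 0.14 ± 0.04 with Nfe2l1 (adjusted p = 0.0137), but without Nfe2l1 replicate 3 by 0.08 (adjusted p = 0.246), and the call was also lost without GFP replicate 1 (0.0699), in DESeq2 (0.123), with no low-count filter (0.101) and in the 7 libraries of like depth (0.193).

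The 3 MEF2 genes, whose products bind the same DNA site, each moved differently. Mef2a stood at 202, 205 and 224 CPM in the GFP libraries, 233, 237 and 234 in the Nfya-labelled and 223, 229.8 and 211 in the Nfe2l1-labelled libraries. The Nfya-labelled libraries lay above the other 6, and GFP replicate 3, the shallowest library, was the highest of its group. Mef2a rose by 0.16 ± 0.04 with Nfya (adjusted p = 0.00298), a call lost only with the Nfya-labelled libraries counted as 1 sample (0.0742) among the 22 alternatives. With Nfe2l1 the change was 0.07 ± 0.04 (adjusted p = 0.130). It passed with no low-count filter (0.11, adjusted p = 0.00999593), without GFP replicate 3 (0.12, adjusted p = 0.00988), without Nfe2l1 replicate 3 (0.12, adjusted p = 0.0294) and without both (0.15, adjusted p = 2.75e-04).

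Mef2c, the first MEF2 gene expressed in the heart field, fell with Nfe2l1. Its values were 263, 263 and 267 CPM in the GFP libraries, 259, 255 and 265 in the Nfya-labelled and 234, 239 and 242 in the Nfe2l1-labelled libraries. The Nfe2l1-labelled libraries lay below the other 6, and the GFP and Nfya-labelled ranges overlapped. Mef2c fell by 0.15 ± 0.03 with Nfe2l1 (adjusted p = 2.54e-04), under all 22 alternatives. With Nfya the log2 change was -0.03 ± 0.03 (95% interval -0.09 to 0.03, adjusted p = 0.447).

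Mef2d, the most broadly expressed MEF2 gene, fell with Nfya. It stood at 108.8, 107.4 and 108.1 CPM in the GFP libraries, at 99.0, 98.5 and 99.8 in the Nfya-labelled and at 110.5, 112.2 and 106.8 in the Nfe2l1-labelled libraries. The Nfya-labelled libraries lay below the other 6. Mef2d fell by 0.13 ± 0.03 with Nfya (adjusted p = 0.0135), but 10 of 22 alternatives lost the call, with log2 changes from -0.09 to -0.13. Among these were DESeq2 (adjusted p = 0.142), the Nfya-labelled libraries counted as 1 sample (0.111), the fit of only the 6 libraries compared (0.0879), and the fits without GFP replicate 1 (0.149), GFP replicate 2 (0.0978), Nfe2l1 replicate 1 (0.0878) or Nfe2l1 replicate 3 (0.0878). With only the 6 libraries, and in each of these fits without 1 library, the median of all genes also moved, from -0.02 to 0.01. Those losses thus came with a shift shared by all genes. With Nfe2l1 the change was 0.02 ± 0.03 (adjusted p = 0.698).

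The sum of the 3 MEF2 genes stayed close to its control level while their shares shifted. Summed RPKM was 153 ± 3.06 in the GFP libraries, 157 ± 0.768 in the Nfya-labelled and 152 ± 2.41 in the Nfe2l1-labelled libraries, and the ranges of GFP with each of the others overlapped. The GFP and Nfya-labelled ranges met only through GFP replicate 3, the shallowest library. The GFP sums were 151.0, 151.3 and 156.4, and the lowest Nfya-labelled sum was 156.3. Mef2a made up 39.3%, 39.9% and 41.7% of the sum in the GFP libraries, 44.2%, 44.9% and 43.9% in the Nfya-labelled and 42.7%, 43.0% and 41.5% in the Nfe2l1-labelled libraries. Mef2d made up 33.0% ± 0.845 with GFP, 29.8% ± 0.121 with Nfya and 33.5% ± 0.149 with Nfe2l1. Mef2c went from 26.7% ± 0.420 with GFP to 25.8% ± 0.405 with Nfya and 24.1% ± 0.863 with Nfe2l1. The share of Mef2a was thus higher in every Nfya-labelled library than in any other, and that of Mef2d lower, while the share of Mef2c was lowest in the Nfe2l1-labelled libraries. Neither the sum nor the shares were tested.

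**Figure D3:**
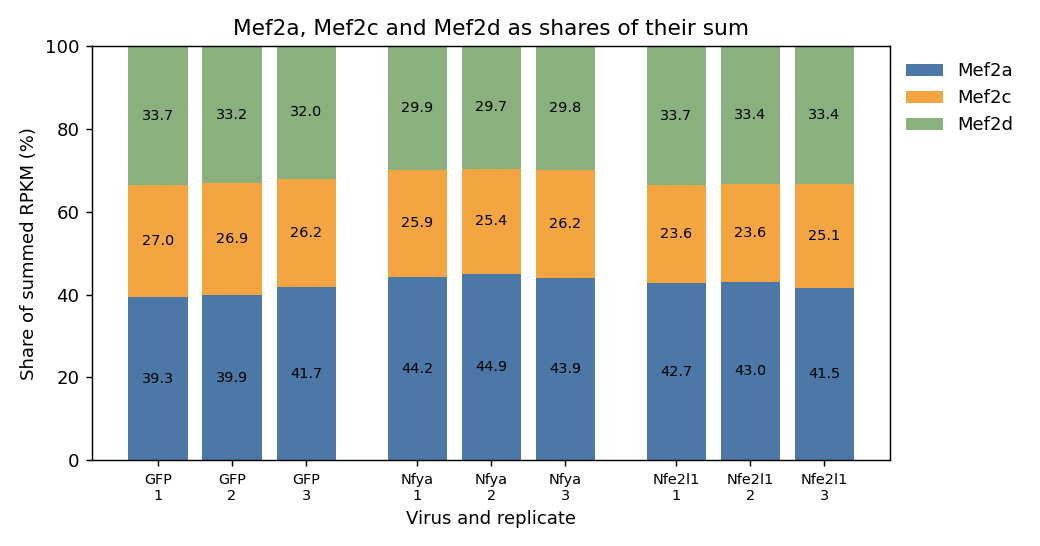
Share of each MEF2 gene in their summed RPKM (percent) in every library. The 3 Nfya-labelled libraries sit lowest for Mef2d and highest for Mef2a, and the 3 Nfe2l1-labelled libraries sit lowest for Mef2c.

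Srf, the MADS-box factor of actin and immediate early genes, rose with Nfya. It stood at 181, 188 and 180.5 CPM in the GFP libraries, at 194, 206 and 203 in the Nfya-labelled and at 176, 179 and 184 in the Nfe2l1-labelled libraries. The Nfya-labelled libraries lay above the other 6, whose ranges overlapped. Srf rose by 0.13 ± 0.03 with Nfya (adjusted p = 0.00263), under all 22 alternatives. With Nfe2l1 the log2 change was -0.03 ± 0.03 (adjusted p = 0.499). The difference between the 2 factor viruses was itself called, at 0.16 ± 0.03 (adjusted p = 5.74e-04), again under all 22 alternatives.

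Counted together, 3 of 10 members were higher and 4 lower with Nfya against GFP, beside 24.3% and 27.9% of all genes tested. In either direction this was 7 of 10 beside 52.2%, and libraries did not overlap for 6 of 10 beside 61.6%. With Nfe2l1, 0 of 10 were higher and 5 lower, beside 28.9% and 29.7%, which is 5 of 10 in either direction beside 58.6%. Libraries did not overlap for 4 of 10 beside 64.0%. The count of 0 is from edgeR; at an unadjusted p below 0.05 and in DESeq2 it was also 0, and Mef2a was called higher in the alternatives given above. The count of 5 went down to 2 without Nfe2l1 replicate 3 (Tbx5 and Mef2c kept), and to 3 in DESeq2. With 10 genes these counts are coarse, and nothing particular to the members is read from them. The median log2 change of the 10 was -0.01 with Nfya and -0.12 with Nfe2l1, beside -0.02 and -0.01 over all genes.

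**Figure D4:**
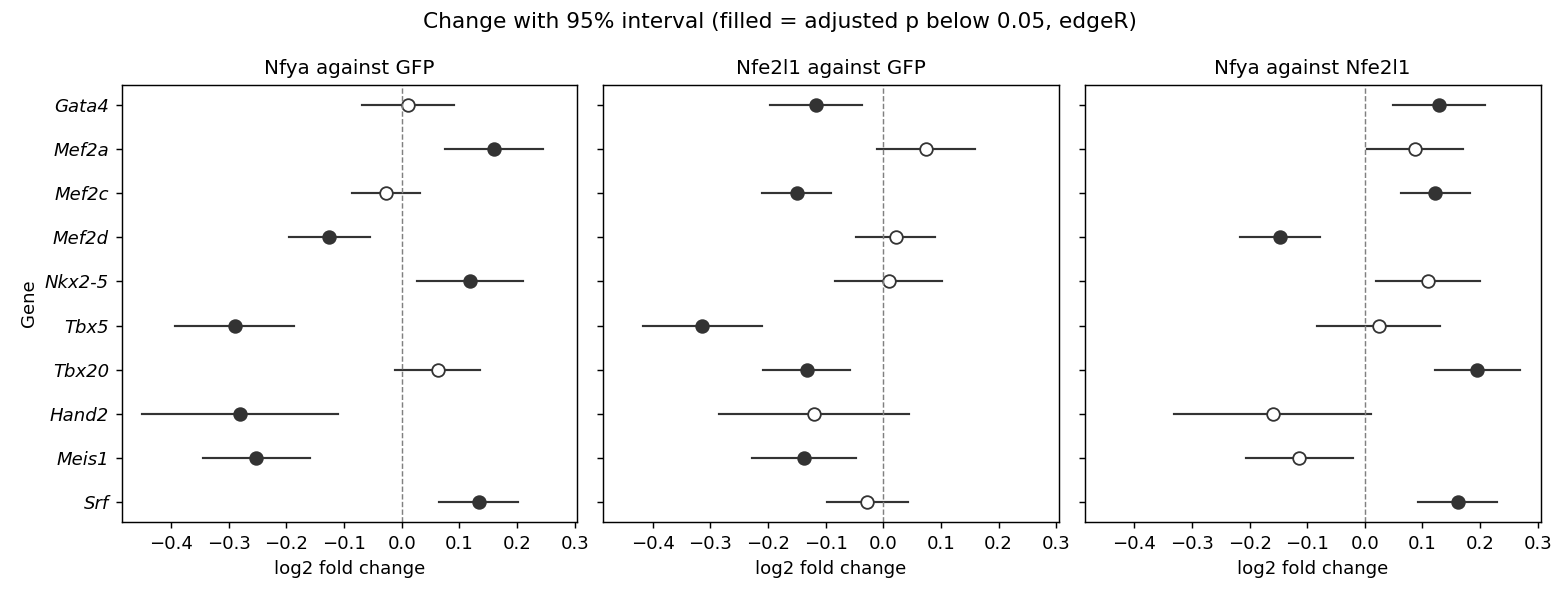
Log2 fold change of each factor in the 3 comparisons (points) with its 95% interval from edgeR's quasi-likelihood fit (bars); filled points were called at an adjusted p below 0.05. All values lie between -0.31 and 0.20, and Tbx5 lies furthest from 0 in both comparisons with GFP.

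Set directly against each other, the 2 factor viruses differed for 5 members. Tbx20, Srf, Gata4 and Mef2c were higher in the Nfya-labelled than in the Nfe2l1-labelled libraries, by 0.20, 0.16, 0.13 ± 0.04 (adjusted p = 0.00961) and 0.12 ± 0.03 (adjusted p = 0.00172). Mef2d was lower, by -0.15 ± 0.03 (adjusted p = 0.00308). These 4 higher and 1 lower stand beside 25.2% and 25.4% of all genes, 5 of 10 in either direction beside 50.6%, and libraries without overlap for all members but Tbx5 (9 of 10) beside 60.0%. With the Nfya-labelled libraries counted as 1 sample, Gata4 (adjusted p = 0.130), Mef2c (0.050003) and Mef2d (0.0589) were no longer called. Mef2a (0.09 ± 0.04, adjusted p = 0.0774) and Nkx2-5 (0.11 ± 0.04, adjusted p = 0.0658) were not called but passed in 10 of 22 alternatives each. For Mef2a these include leaving out GFP replicate 1 (adjusted p = 0.0401), 2 (0.0435) or 3 (0.0258) or Nfe2l1 replicate 2 (0.0381), and for Nkx2-5 GFP replicate 1 (0.0283) or 2 (0.0281), Nfya replicate 1 (0.0351) or Nfe2l1 replicate 3 (0.0370). Without GFP replicate 1 or 2 the median of all genes between the viruses also moved, from 0.01 to 0.03. Meis1 was lower in the Nfya-labelled libraries by -0.11 ± 0.04 (adjusted p = 0.0624), and called without Nfe2l1 replicate 3 (0.0455). Hand2 differed by -0.16 ± 0.08 (adjusted p = 0.173). The count of members lower went from 1 to 2 without Nfe2l1 replicate 3.

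The authors' deposited table of Nfya against GFP gives each of the 10 members a higher log2 change than the fit here, by nearly the same amount (Gata4 0.0469 there and 0.0113 here, Tbx5 -0.254 and -0.290). It lists Tbx5 at -0.25 (FDR 2.27e-05), Meis1 at -0.22 (FDR 2.09e-04), Srf at 0.17 (FDR 7.98e-05) and Mef2a at 0.20 (FDR 2.16e-05). In the authors' deposited table Mef2d is at -0.09 with an FDR of 0.103 and Tbx20 at 0.10 with an FDR of 0.0469, the 2 members whose side of 0.05 differs from the fit here. With only the 6 libraries compared, edgeR here put both on the authors' side, Mef2d at -0.0896 (adjusted p = 0.0879) and Tbx20 at 0.0979 (0.0374). The median log2 change of all genes was 0.0102 in that fit and -0.0241 over the 9 libraries, so a shift of this kind is not particular to the members. The authors' deposited table of Nfe2l1 against GFP has Tbx5 at -0.31 (FDR 8.62e-08) and Mef2c at -0.15 (FDR 1.7e-04), and there no member is on the other side of 0.05.

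Other genes varied over the libraries most like the 3 members with the largest changes. By Pearson correlation of log2 CPM over the 9 libraries, among 11940 genes with a mean of at least 5 CPM, Tbx5 was closest to Slc30a3 (r = 0.98), AABR07029661.1 (r = 0.98) and Rbak (r = 0.98). Slc30a3, a zinc transporter gene, fell from 80.1 ± 5.85 CPM with GFP to 51.3 ± 3.66 with Nfya and 51.6 ± 0.449 with Nfe2l1. Hand2 was closest to Ssbp3 (r = 0.96), Nol11 (r = 0.96) and Gcsh (r = 0.96), and Meis1 to Flcn (r = 0.97), Asb8 (r = 0.97) and Eif3g (r = 0.97). These values describe libraries that share 3 groups and their depth, and carry no test.

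Among 34 other factors of the cardiac lineage 28 were tested, of which 10 rose and 8 fell with Nfya and 8 rose and 9 fell with Nfe2l1, beside 24.3% and 27.9% of all genes tested with Nfya and 28.9% and 29.7% with Nfe2l1. With the Nfya-labelled libraries counted as 1 sample, 6 rose with Nfya in place of 10. Their median log2 change was 0.06 and 0.01, beside -0.02 and -0.01 over all genes. Zfpm1, which encodes FOG1, a cofactor of GATA proteins, fell from 136 ± 2.22 CPM with GFP to 84.0 ± 1.29 with Nfya and 102 ± 3.47 with Nfe2l1 (log2 change -0.69 ± 0.03, adjusted p = 1.78e-10, and -0.41 ± 0.03, adjusted p = 3.45e-08). Meis2, a close relative of Meis1, rose by 0.26 ± 0.03 with Nfya (adjusted p = 2.21e-06) and was at 0.06 ± 0.03 with Nfe2l1 (adjusted p = 0.192), while Meis3 was at 0.19 ± 0.11 with Nfya (adjusted p = 0.188) and rose by 1.13 ± 0.09 with Nfe2l1 (adjusted p = 4.06e-08). With Nfya, Meis1 thus fell where Meis2 rose. Hey2, a Notch target of the ventricle, fell by 0.47 ± 0.06 and 0.44 ± 0.06 (adjusted p = 6.24e-06 and 8.7e-06), and Prox1 fell by 0.17 ± 0.03 and 0.32 ± 0.03 (adjusted p = 2.48e-04 and 3.89e-07). Nr2f2, the atrial and venous factor COUP-TFII, rose by 0.57 ± 0.07 and 0.28 ± 0.07 (adjusted p = 4.55e-06 and 0.00395).

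Of 28 cofactors and regulators of MEF2, SRF and GATA4 26 were tested; 13 rose and 6 fell with Nfya and 12 rose and 7 fell with Nfe2l1, with medians of 0.06 and -0.00. All genes tested were called higher and lower at 24.3% and 27.9% with Nfya and at 28.9% and 29.7% with Nfe2l1. The 13 became 6 with the Nfya-labelled libraries counted as 1 sample and 8 at a threshold of 0.01. Myocd, the myocardin coactivator of SRF, stood at 149 ± 2.88 CPM with GFP, 191 ± 5.32 with Nfya and 171 ± 9.28 with Nfe2l1, and rose in both (0.36 ± 0.04, adjusted p = 9.88e-07, and 0.20 ± 0.04, adjusted p = 3.65e-04). Elk3, an Ets-type SRF partner also known from endothelial cells, rose by 1.23 ± 0.06 and 1.11 ± 0.06 (adjusted p = 4.79e-11 and 1.31e-10). Nfatc4, a calcineurin-regulated partner of GATA4, rose from 5.29 ± 1.48 CPM to 15.8 ± 1.14 and 22.8 ± 0.862 (log2 change 1.55 ± 0.15 and 2.08 ± 0.14, adjusted p = 3.41e-07 and 3.35e-09). Hdac4, a class IIa deacetylase that restrains MEF2, rose by 0.32 ± 0.11 with Nfya (adjusted p = 0.0268) and by 0.71 ± 0.11 with Nfe2l1 (adjusted p = 2.92e-05). Crebbp, a histone acetyltransferase, fell by 0.36 ± 0.03 and 0.27 ± 0.03 (adjusted p = 1.49e-07 and 2.54e-06).

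Among known target genes of these factors the counts changed with single libraries and with the depth of those used. Of 46 cardiac target genes 43 were tested; with Nfya 11 rose, 4 fell and 28 did not pass, and with Nfe2l1 3 rose, 14 fell and 26 did not pass. The shares over all genes tested were 24.3% higher and 27.9% lower with Nfya, and 28.9% and 29.7% with Nfe2l1. In the 7 libraries of like depth 18 rose with Nfya, and 11 rose and 9 fell with Nfe2l1. Without Nfe2l1 replicate 3, 6 rose and 8 fell with Nfe2l1, and without GFP replicate 3, 5 rose. With the Nfya-labelled libraries counted as 1 sample 5 rose with Nfya, and after inversion of a count ceiling set at 1.6 per base 7 fell with Nfya and 6 rose with Nfe2l1. With no low-count filter 6 rose with Nfe2l1, and among genes with a mean of at least 5 CPM 5 rose. The medians were 0.02 and -0.07. Between the 2 viruses 19 were higher and 1 lower in the Nfya-labelled libraries, with a median of 0.09 beside 0.01 over all genes, and beside 25.2% and 25.4% of all genes called. The 19 became 12 without Nfya replicate 2 and at like depth, 11 at a threshold of 0.01 and 9 with the Nfya-labelled libraries counted as 1 sample. Myom1, an M-band protein gene, rose from 313 ± 5.22 CPM to 441 ± 3.58 with Nfya and 371 ± 9.22 with Nfe2l1 (0.49 ± 0.03 and 0.24 ± 0.03, adjusted p = 6.9e-10 and 2.05e-06). The potassium channel gene Kcnh2 fell by 0.34 ± 0.04 and 0.55 ± 0.04 (adjusted p = 1.43e-06 and 5.29e-09), and Hrc, a calcium-binding protein of the sarcoplasmic reticulum, fell by 0.17 ± 0.03 and 0.35 ± 0.03 (adjusted p = 3.63e-04 and 2.35e-07). Xirp2 rose by 0.31 ± 0.04 and 0.37 ± 0.04 (adjusted p = 2.57e-06 and 2.4e-07). Corin, which activates natriuretic peptides, rose by 0.28 ± 0.04 with Nfya (adjusted p = 1.18e-05) and was at -0.09 ± 0.04 with Nfe2l1 (adjusted p = 0.0685). Of the 10 tested cardiomyocyte markers, which are themselves in this list, 3 rose with Nfya (Myl2, Myh6 and Actc1) and 0 passed with Nfe2l1, where the fitted log2 changes ran from -0.10 to 0.14. With Nfe2l1, edgeR at an unadjusted p below 0.05 gave 0 higher and 1 lower and DESeq2 gave 0 and 0, while 4 were higher at like depth and 1 without Nfe2l1 replicate 3, and 2 were lower without Nfe2l1 replicate 2 and 1 without GFP replicate 2. With Nfya the 3 became 6 at like depth and 1 with its libraries counted as 1 sample.

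Among SRF target genes 29 of 30 were tested; 8 rose and 5 fell with Nfya, and 3 rose and 11 fell with Nfe2l1, with medians of 0.02 and -0.05. The shares over all genes were 24.3% and 27.9% with Nfya and 28.9% and 29.7% with Nfe2l1. With Nfya the 8 became 13 at like depth and 5 at a threshold of 0.01, and counting its libraries as 1 sample left 2 higher and 3 lower. With Nfe2l1 like depth gave 6 higher and 7 lower. Lima1, an actin-bundling protein gene, rose by 1.02 ± 0.05 and 0.89 ± 0.05 (adjusted p = 5.91e-11 and 2.35e-10), and Flna, which encodes filamin A, rose by 0.26 ± 0.03 and 0.19 ± 0.03 (adjusted p = 3.57e-06 and 8.23e-05). The immediate early gene Fos fell from 31.8 ± 1.58 CPM to 12.4 ± 0.264 and 11.1 ± 1.58 (-1.35 ± 0.09 and -1.50 ± 0.09, adjusted p = 6.59e-09 and 1.64e-09). Fosb fell by 0.73 ± 0.15 and 1.62 ± 0.17 (adjusted p = 6.39e-04 and 5.36e-07). Junb fell by 0.30 ± 0.06 with Nfya (adjusted p = 5.67e-04) and was at 0.08 ± 0.06 with Nfe2l1 (adjusted p = 0.290). Cnn1, the smooth muscle calponin gene, rose by 0.13 ± 0.04 with Nfya (adjusted p = 0.00629) and fell by 0.74 ± 0.04 with Nfe2l1 (adjusted p = 2.93e-10). Between the viruses 13 of the 29 were higher and 2 lower in the Nfya-labelled libraries, beside 25.2% and 25.4% of all genes. This list shares Cnn1, Acta2 and Tagln with the smooth muscle and pericyte markers, of which all 9 tested were higher in the Nfya-labelled libraries (median 0.57). The 13 became 6 with the Nfya-labelled libraries counted as 1 sample, and the 2 became 1 there and without Nfya replicate 1, Nfe2l1 replicate 2 or Nfe2l1 replicate 3.

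Markers of other heart cells moved with the viruses too, and their part in the changes of the 10 factors was not tested. The counts below stand beside 24.3% of all genes tested called higher and 27.9% lower with Nfya, and 28.9% and 29.7% with Nfe2l1. Of the 12 fibroblast markers 11 rose with each virus, with medians of 1.19 and 0.91. The other, Col1a2, is named after its values were seen. It was at 9.55 ± 8.22 CPM with GFP and 2.01 ± 1.252 with Nfya (adjusted p = 0.0264), and its call was lost in 11 of 22 alternatives, among them DESeq2 and the fits without GFP replicate 2, GFP replicate 3, Nfya replicate 1 or Nfya replicate 2. Their summed level ran from 1334 to 1399 CPM over the GFP, 2591 to 2636 over the Nfya-labelled and 2169 to 2282 over the Nfe2l1-labelled libraries. Postn, a matrix protein gene of fibroblasts, went from 112 ± 4.24 to 274 ± 0.82 and 220.3 ± 5.19 CPM. Summed cardiomyocyte markers overlapped, at 3745 to 4159, 3992 to 4055 and 3598 to 3981 CPM in the same order. Per length, Tnnt2 (216 to 235 RPKM) and Actn2 (136 to 150) lay above Gata4 (67.8 to 72.8) in the GFP libraries, and Myh6 (55.2 to 62.9) below. A ceiling on counts per base would hold down changes of dense genes, and its part in these sums was not tested. Endothelial markers summed to 294 to 311, 381 to 399 and 415 to 436 CPM (5 of 8 tested rose with each virus, 1 and 2 fell, Cldn5 was at 0 in every group), with Tek higher by 1.77 ± 0.08 and 1.87 ± 0.08 and Kdr lower by -1.08 ± 0.04 and -0.86 ± 0.04. Smooth muscle and pericyte markers summed to 1194 to 1204, 1313 to 1333 and 947 to 980 CPM, with 6 of 9 tested higher and 1 lower with Nfya and 2 higher and 4 lower with Nfe2l1. Pdgfrb, the pericyte receptor gene, rose by 1.44 ± 0.07 and 0.81 ± 0.07 (adjusted p = 6e-11 and 1.11e-07), and Myh11, the smooth muscle myosin gene, rose by 0.82 ± 0.05 with Nfya (adjusted p = 6.71e-10) and was at 0.04 ± 0.05 with Nfe2l1 (adjusted p = 0.579). Epicardial and mesothelial markers summed to 184 to 196, 216 to 241 and 301 to 315 CPM (8 of 10 higher and 2 lower with each virus). Macrophage and leukocyte markers summed to 74.3 to 92.7, 103 to 115 and 108 to 124 CPM (5 of 7 tested higher and 1 lower with Nfya, 4 higher and 0 lower with Nfe2l1). With the Nfya-labelled libraries counted as 1 sample, 3 smooth muscle and pericyte, 5 epicardial and 3 macrophage markers were higher with Nfya. Without Nfya replicate 1 the macrophage count was also 3, and without GFP replicate 2 or Nfe2l1 replicate 2 the endothelial count lower with Nfe2l1 was 1. Srf, Meis1 and the MEF2 genes are also expressed outside heart muscle, and Gata4, Tbx20 and Hand2 in other cells of the heart.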

How the data were processed

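The 9 libraries were grouped by their titles. The authors deposited whole-number counts per gene symbol, RPKM values with gene length in bases, and an edgeR table per factor virus with log2 values, a likelihood-ratio score and p-values, per the file headers. Builds rn6, GRCm38 and mm10, and the tools FastQC 0.11.4, featureCounts 1.6.0 and edgeR 3.20.5, stand in the submitters' processing notes without roles. No source used here gives the aligner, strand setting or duplicate handling. Totals were 5712123 to 7310774 counts per library, which sets the counting error given in the report.

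The analysis used edgeR 4.0.16 under R 4.3.3, with filterByExpr (14151 of 28935 genes kept), TMM scaling and 1 quasi-likelihood fit over the 9 libraries, in which the virus was the single factor. The threshold was an adjusted p of 0.05 (Benjamini and Hochberg). Standard errors are the absolute log2 change over the square root of F, and intervals are 95%. Each result was recomputed under 22 alternatives, 3 of them chosen after seeing the data (7 libraries of like depth, the Nfya-labelled libraries averaged as 1 sample, inversion of a ceiling assumed at 1.6 counts per base), with DESeq2 1.42.0 and limma 3.58.1 among the tools. RPKM served for levels between genes and, with a pseudocount of 1 or 0.1, for limma. Within a library, the ratio of counts per length to deposited RPKM varied slightly by gene. The step behind this is named in no source used here.

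The members and lists were chosen with earlier results of these data known. Named genes are all members, up to 4 tested genes with the smallest adjusted p per functional list and comparison with GFP, up to 2 per cell type list, and 3 cardiomyocyte markers; likeness partners are the 3 closest genes of each of the 3 members with the largest changes. Some cell type genes so chosen are given within their list's counts only. One gene chosen by this rule is not reported here. Promoters were matched by symbol. Figures were drawn with matplotlib 3.10.9.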

Additional observations from a re-analysis of the deposited data

How the results depend on the processing

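Tbx5 with both viruses, Meis1 and Srf with Nfya and Mef2c with Nfe2l1 (against GFP), and Tbx20 and Srf between the factor viruses, kept direction and call under all 22 alternatives. For members against GFP, averaging the Nfya-labelled libraries as 1 sample gave 1 higher and 2 lower with Nfya (from 3 and 4), and DESeq2 and the 0.01 threshold each gave 2 lower. With Nfe2l1, no low-count filter and the 7 libraries of like depth gave 1 higher (from 0) and 2 lower (from 5), while DESeq2 and the 0.01 threshold gave 3 lower. Between the viruses, averaging gave 2 higher (from 4) and 0 lower (from 1) and DESeq2 0 lower, while limma on log2(RPKM + 1), like depth and the inverted ceiling gave 2 lower. Over all genes, averaging gave 2553 lower with Nfya (from 3953), and 2215 higher and 2389 lower between the viruses (from 3561 and 3597). Leaving out 1 library gave 2 to 4 higher and 3 to 4 lower members with Nfya, 0 to 1 and 2 to 5 with Nfe2l1, and 4 to 6 and 1 to 2 between them; over all genes it gave 3155 to 3915 and 3059 to 4034, 3878 to 4112 and 3666 to 4215, and 3150 to 3861 and 2984 to 3703. Averaging leaves fewer samples; otherwise the cause was not tested.

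Same-numbered libraries deviated together by correlations of -0.0655 to 0.0485. Libraries of a group differed largely by counting noise (chi-square per degree of freedom 0.969 to 1.67 over pairs). Such noise is separate in each library, so this check could miss a shared preparation, and pairing stays unsettled. With the replicate block, 2 members were higher and 4 lower with Nfya, 0 and 5 with Nfe2l1, and 4 and 1 between them (all genes 3371 and 3849, 4040 and 4097, 3428 and 3501), and Nkx2-5 with Nfya had an adjusted p of 0.0514.

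Signs turned only for changes that were never called. Mef2c with Nfya went to 0.00168 with no filter, 0.0121 at a mean of at least 5 CPM, 0.00809 with only the 6 libraries compared, 6.58e-04 without GFP replicate 1, 0.00737 without Nfe2l1 replicate 1 and 0.00784 without Nfe2l1 replicate 3 (range without 1 library -0.0425 to 0.00784). Gata4 with Nfya went to -0.00123 without Nfya replicate 2 (to 0.0465 without another library). With Nfe2l1, Nkx2-5 went to -0.00571 and -0.00179 without replicate 2 of GFP or Nfe2l1 (highest 0.0489), and Srf to 0.00772 with no filter, 0.00126 without GFP replicate 2 and 0.00490 without Nfe2l1 replicate 1 (lowest -0.0372). Tbx5 between the viruses went to -0.0349 without Nfya replicate 3 (highest 0.0579). The median of all genes with Nfya was -0.02 in the fit of 9 libraries and 0.01 with only the 6 compared. It was also 0.01 at a mean of at least 5 CPM and without GFP replicate 1, Nfe2l1 replicate 1 or Nfe2l1 replicate 3. The sign turns of Mef2c in these fits thus came with a shift of all genes. Of the counts within gene lists under these alternatives, 1333 stayed close to the reported count and 119 moved by more than the 1.5-fold margin. Depth limits Hand2 most, with a counting error of up to 8.69%.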
